A study of Mus musculus with 6 samples.

Results

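The respiratory chain and the ATP synthase are the protein complexes of the inner mitochondrial membrane that turn the oxidation of NADH and succinate into ATP. This account covers their subunit genes in the cell nucleus, in cells sorted from mouse gliomas. Members were taken by gene symbol, from the subunit families of complexes I to V together with Cycs (cytochrome c) and Cyc1 (cytochrome c1), and include Ndufa4l2. The rule found 82 of the 22180 genes measured: 33 of complex I, 4 of complex II, 8 of complex III, 1 for cytochrome c, 17 of complex IV, 17 of the ATP synthase and 2 pseudogene symbols. No measured value entered the rule, beyond the choice of the brightest probe set of a gene. The list was, however, chosen with earlier results of these data known. Subunits that the mitochondrial genome encodes were not analysed here, and neither were those whose probe sets carry several gene symbols, such as Cox6c and Uqcr10.

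The 6 arrays came from 6 mice, 3 in each group. Common to all 6 mice were floxed alleles of Pfn1 (fl/fl), the gene of the actin-binding protein profilin-1, together with its Y129F form. Tie2-Cre was carried by mice 1, 3 and 4, and mice 6, 7 and 10 had no Cre. Tie2-Cre is known to act in endothelial cells and also in many blood cells. Magnetic sorting for CD105, which is endoglin, gave cells labelled as tumor-associated endothelial cells, and glioma-conditioned medium was then applied to them for 12 h. RNA was measured on Affymetrix mouse gene arrays, and levels are log2 of the deposited RMA intensity, in which probe sets differ in brightness, so that no level is compared between single genes. The question of the series is the role of profilin-1 phosphorylation in expression. The labels do not say how Cre rearranges these alleles. They give neither strain nor age.

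Complex I takes electrons from NADH and complex II takes them from succinate, and both pass them on to coenzyme Q. Complex III moves them to cytochrome c, and complex IV, cytochrome c oxidase, hands them to oxygen. The proton gradient built along the way drives the ATP synthase, also called complex V. Low oxygen is known to remodel this chain: the factor HIF-1 raises Ndufa4l2, which lowers complex I activity, and the COX4I2 isoform of complex IV in human cells. Endothelial cells are known to draw most of their ATP from glycolysis.

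Changes are given as log2 differences, Tie2-Cre minus no Cre, and a gene was called where limma's adjusted p lay under 0.05. Of the 82 members, 11 were lower, 1 was higher and 70 did not pass the threshold. The lower members made up 13.4% of the list, against 7.17% of all genes called lower, and the higher member made up 1.22%, against 4.78% of all genes. The median change of the 82 was -0.14, and the median over all genes was -0.0042. The fitted change was below 0 in 67 members and above 0 in 15.

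In 35 members the 3 arrays of one group lay wholly apart from those of the other. In 33 of them (40.2%) all Tie2-Cre arrays were the lower ones, against 17.5% of all genes, and in 2 (2.44%) they were the higher ones, against 13.6%. The count of calls rested on the mice. On leaving out Tie2-Cre mouse 1, 3 or 4 it was 4, 8 or 4 lower members, or 4.88%, 9.76% and 4.88% of the list, against 4.72%, 5.59% and 5.65% of all genes. On leaving out mouse 6, 7 or 10 of the no Cre group it was 4, 3 or 3, or 4.88%, 3.66% and 3.66%, against 4.61%, 4.1% and 4.63%. With 5 mice the share of members called lower was thus near the background, except in the fit that lacked Tie2-Cre mouse 3. It was also near it where probe sets without a single symbol were added to the test, with 2 lower members (2.44%) against 2.98%. The median of the members lay between -0.14 and -0.11 over the same 6 fits. Members are brighter than most genes, with array medians of 9.17 to 9.68 against 7.08 to 7.14 for all genes. With the dimmest 33.3% of genes left out, 19 of 75 members were lower (25.3%), against 13.2% of the genes then tested. A minimum mean log2 of 5 gave 17 of 79 (21.5%), against 8.88%, and eBayes with trend and robust gave 22 of 82 (26.8%), against 9.56%.

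**Figure D1:**
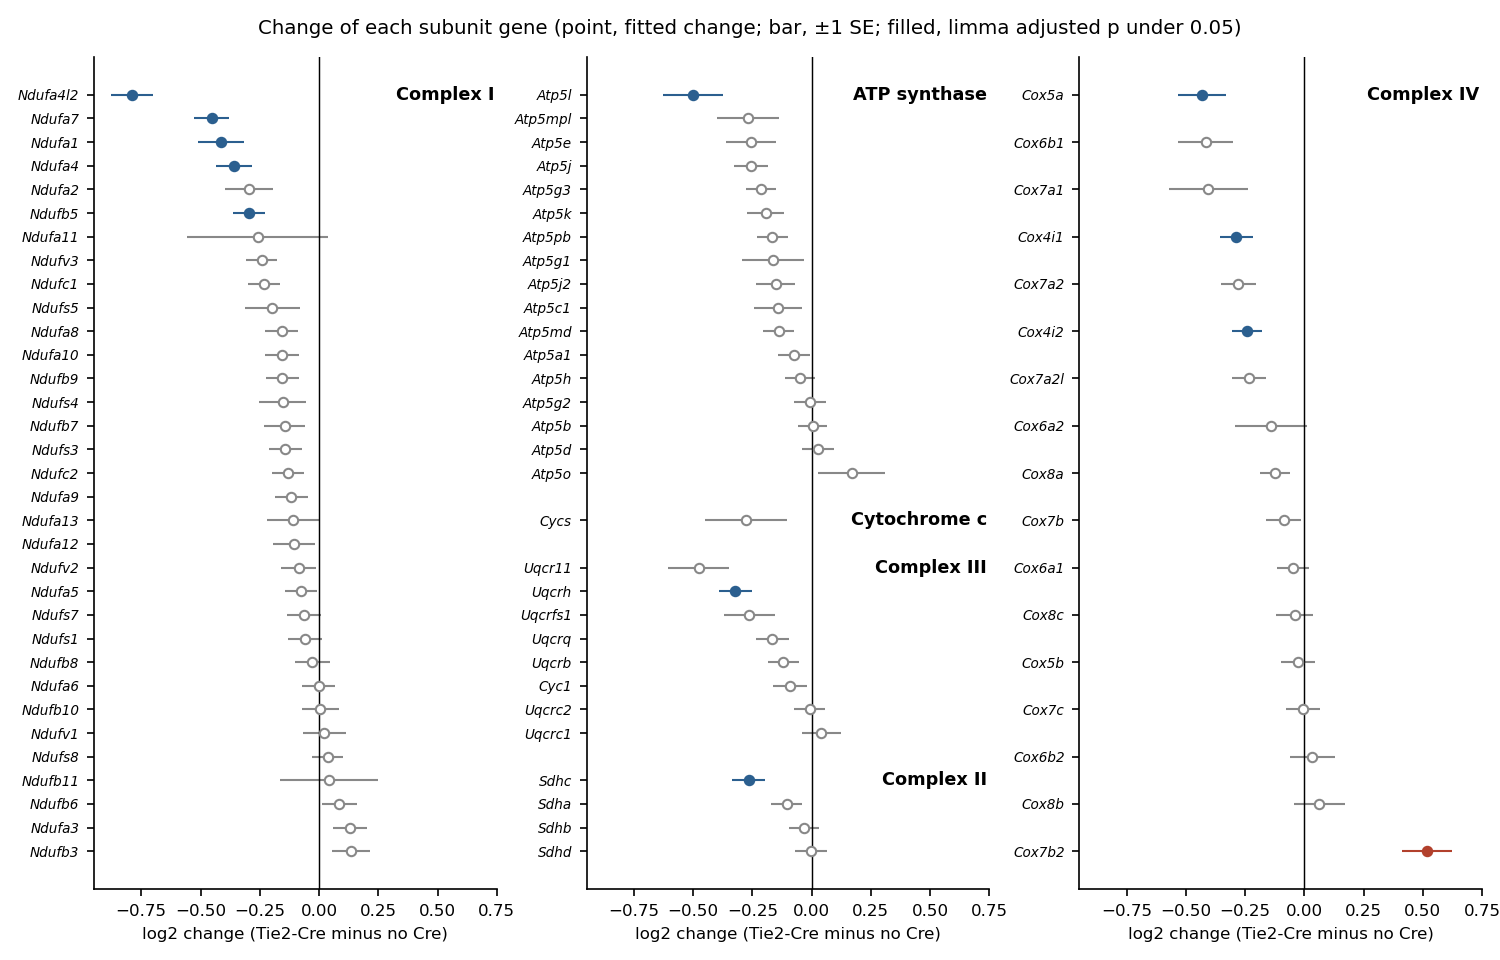
Log2 change, Tie2-Cre minus no Cre, of the 80 subunit genes that are not pseudogenes, sorted within each complex. Points are limma's fitted changes with bars of 1 SE, filled where the adjusted p lay under 0.05: 11 members are filled to the left of 0 and Cox7b2 to the right.

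Other measures differed between the same mice. Xist, the RNA of the inactive X chromosome, had log2 levels of 5.37 to 6.06 in the Tie2-Cre mice and of 11.16 to 11.44 in the others, and the Y-linked genes Uty, Eif2s3y and Kdm5d were higher in all 3 Tie2-Cre mice, so that Cre and sex cannot be told apart in any result here. The marker counts that follow stand against 4.78% of all genes called higher and 7.17% called lower. Of 12 pericyte and smooth muscle markers, 6 (50%) were higher and 0 lower, with a median change of 0.57. Their mean log2 level per array was 9.78 to 10.21 with Tie2-Cre and 9.28 to 9.34 without. The mean of 10 fibroblast markers was 10.46 to 10.58 against 9.85 to 9.89, with 4 higher and 1 lower. The median change of these markers was 0.09, with Dpt at 3.54, Pdgfra at 1.65 and Lum at 1.27, and Dcn at -0.76. The mean of 10 mesothelial and epithelial markers was 6.78 to 6.94 against 7.30 to 7.41, with 0 higher and 3 lower, and their median change was -0.11, with Upk1b at -3.29 and Upk3b at -1.36. The 14 endothelial markers had means of 6.72 to 6.88 and 6.74 to 6.77, with 1 higher (7.14%) and 1 lower (7.14%). The higher was Flt1, with a change of 1.11 (SE 0.25, limma adjusted p 0.0272). The lower was Eng, the gene of the sorted marker CD105, with -0.30 (SE 0.064, limma adjusted p 0.0217) and groups apart. Mean levels of the 14 over the 6 arrays ran from 4.28 in Emcn to 11.91 in Eng, with Pecam1 at 6.23 and Cdh5 at 6.89. Apart from Flt1, Egfl7, Sox17 and Eng, the mean levels of the 14 lay under the median of all genes on every array (7.08 to 7.14). With no detection call, these values do not settle which endothelial markers were expressed. The 14 macrophage and microglia markers had means of 6.75 to 6.81 and 6.83 to 6.89, with 1 higher and 3 lower. No value of 0 can occur in these data, so that no marker can be called absent. The part of these markers in the results was not tested, and a smaller share of cells rich in mitochondria cannot be told apart from less RNA per cell.

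All complexes had a median below 0. It was -0.13 for complex I, -0.07 for complex II, -0.14 for complex III, -0.12 for complex IV and -0.15 for the ATP synthase. By array, the median deviation of complex I from the mean of the no Cre arrays was -0.16, -0.09 and -0.14 in Tie2-Cre mice 1, 3 and 4, and ran from -0.02 to 0.02 in the no Cre mice. That of the ATP synthase was -0.14, -0.13 and -0.17, and from -0.02 to 0.02 without Cre. In each of the 5 complexes, all Tie2-Cre arrays lay under all no Cre arrays by this measure. It sets the no Cre arrays against their own mean, which holds them near 0. The measure was not taken over all genes or over other lists.

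**Figure D2:**
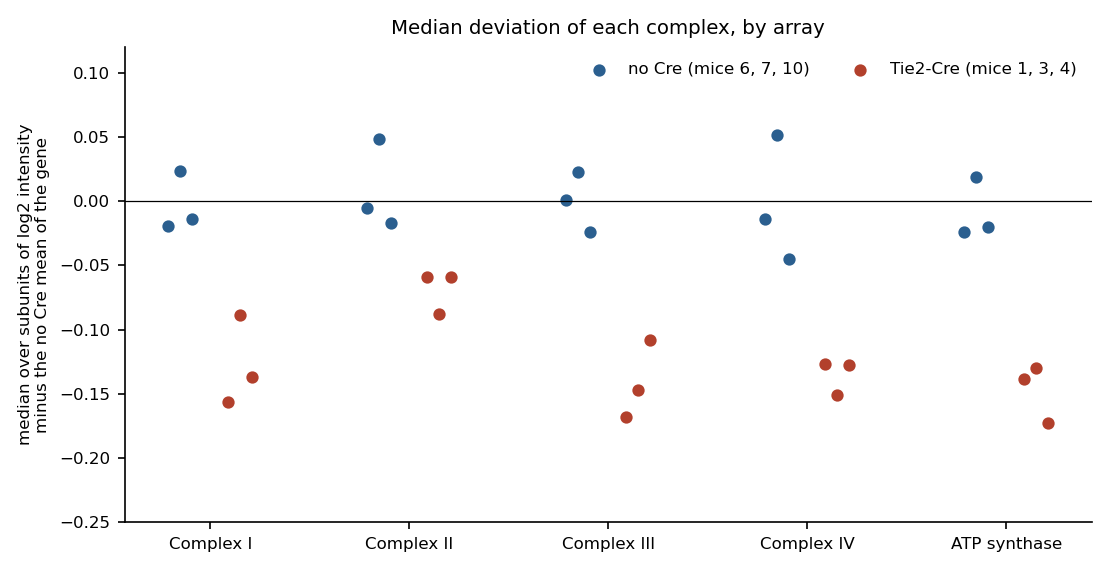
Median over the subunits of a complex of the log2 intensity minus the gene's mean in the no Cre arrays, 1 point per mouse (y axis, log2 units). The Tie2-Cre mice lie between -0.17 and -0.06 and the no Cre mice between -0.05 and 0.05.

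In complex I, counted by symbol and so with Ndufa4 and Ndufa4l2, 5 of 33 genes (15.15%) were lower, against 7.17% of all genes. None was higher, and 28 did not pass the threshold. The largest fall of all 82 members was that of Ndufa4l2, the HIF-1 target related to Ndufa4. It lay at 8.03, 8.01 and 7.87 in Tie2-Cre mice 1, 3 and 4 and at 8.62, 8.79 and 8.87 in no Cre mice 6, 7 and 10. The groups were clearly apart, and the change of -0.79 (SE 0.088, limma adjusted p 0.00111) is a level 42.2% lower. Its adjusted p stayed between 8.78e-05 and 0.00756 in all refits.

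Ndufa7, a supernumerary subunit of complex I, lay at 9.86, 9.99 and 10.06 with Tie2-Cre and at 10.40, 10.42 and 10.45 without Cre. Its change was -0.45 (SE 0.075, limma adjusted p 0.00683), and its call was kept when any mouse was left out. Together with Ndufa4l2 it was 1 of 2 called members of which this was true. Ndufa4 was first counted to complex I and later placed in complex IV. Its levels were 10.12, 10.30 and 10.27 against 10.53, 10.61 and 10.62, a change of -0.36 (SE 0.076, limma adjusted p 0.0203). The call did not survive the removal of Tie2-Cre mouse 1, or of mouse 7 or 10 of the no Cre group (adjusted p 0.0572 to 0.0753).

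Ndufa1, a small subunit of the membrane arm that is needed to assemble complex I, is X-linked. It lay at 8.52, 8.75 and 8.64 with Tie2-Cre and at 8.89, 9.13 and 9.13 without Cre, and it changed by -0.41 (SE 0.095, limma adjusted p 0.0278). The membrane arm subunit Ndufb5 had the levels 8.88, 8.85 and 8.80 against 9.21, 9.13 and 9.08, a change of -0.29 (SE 0.068, limma adjusted p 0.0287). In both genes the lowest no Cre array was above the highest Tie2-Cre array. The call of Ndufa1 did not survive the removal of Tie2-Cre mouse 1 or 4, or of mouse 7 or 10 of the no Cre group (adjusted p 0.0673 to 0.0984), and that of Ndufb5 when any mouse was left out (adjusted p 0.0571 to 0.106). The other X-linked members did not pass: Ndufb11, of the membrane arm, changed by 0.04 (SE 0.21) and the complex IV gene Cox7b by -0.09 (SE 0.075).

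The flavin and iron-sulfur clusters of complex I lie in core subunits, while the supernumerary ones surround the core. This split was drawn after the values were seen. None of the 6 core genes measured (Ndufs1, Ndufs3, Ndufs7, Ndufs8, Ndufv1 and Ndufv2) passed the threshold in either direction. Their changes ran from -0.14 in Ndufs3 to 0.04 in Ndufs8, with a median of -0.06. The other 27 genes, counted as supernumerary by symbol, held all 5 calls and had a median of -0.15. Among these 5 calls are Ndufa4, later placed in complex IV, and its relative Ndufa4l2. The other end of the 27 genes was Ndufb3, with a change of 0.14 (SE 0.081, limma adjusted p 0.364) and overlapping groups. The difference between core and supernumerary genes was not tested.

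Ndufa11, named after its values were seen, showed the widest spread within a group. It lay at 10.38 in Tie2-Cre mouse 1 and at 11.71 and 11.47 in mice 3 and 4, against 11.44, 11.49 and 11.41 without Cre. Its change of -0.26 (SE 0.30) became 0.14 without Tie2-Cre mouse 1 and -0.52 without Tie2-Cre mouse 3, with adjusted p of 0.436 and 0.330. The same array was low in Cycs, which encodes cytochrome c, the mobile carrier between complexes III and IV. Cycs lay at 11.52, 12.21 and 12.20 with Tie2-Cre and at 12.28, 12.25 and 12.23 without Cre. The groups were apart, but in this probe set most of the gap rested on 1 array. The change was -0.28 (SE 0.17, limma adjusted p 0.389), and -0.05 without Tie2-Cre mouse 1.

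**Figure D3:**
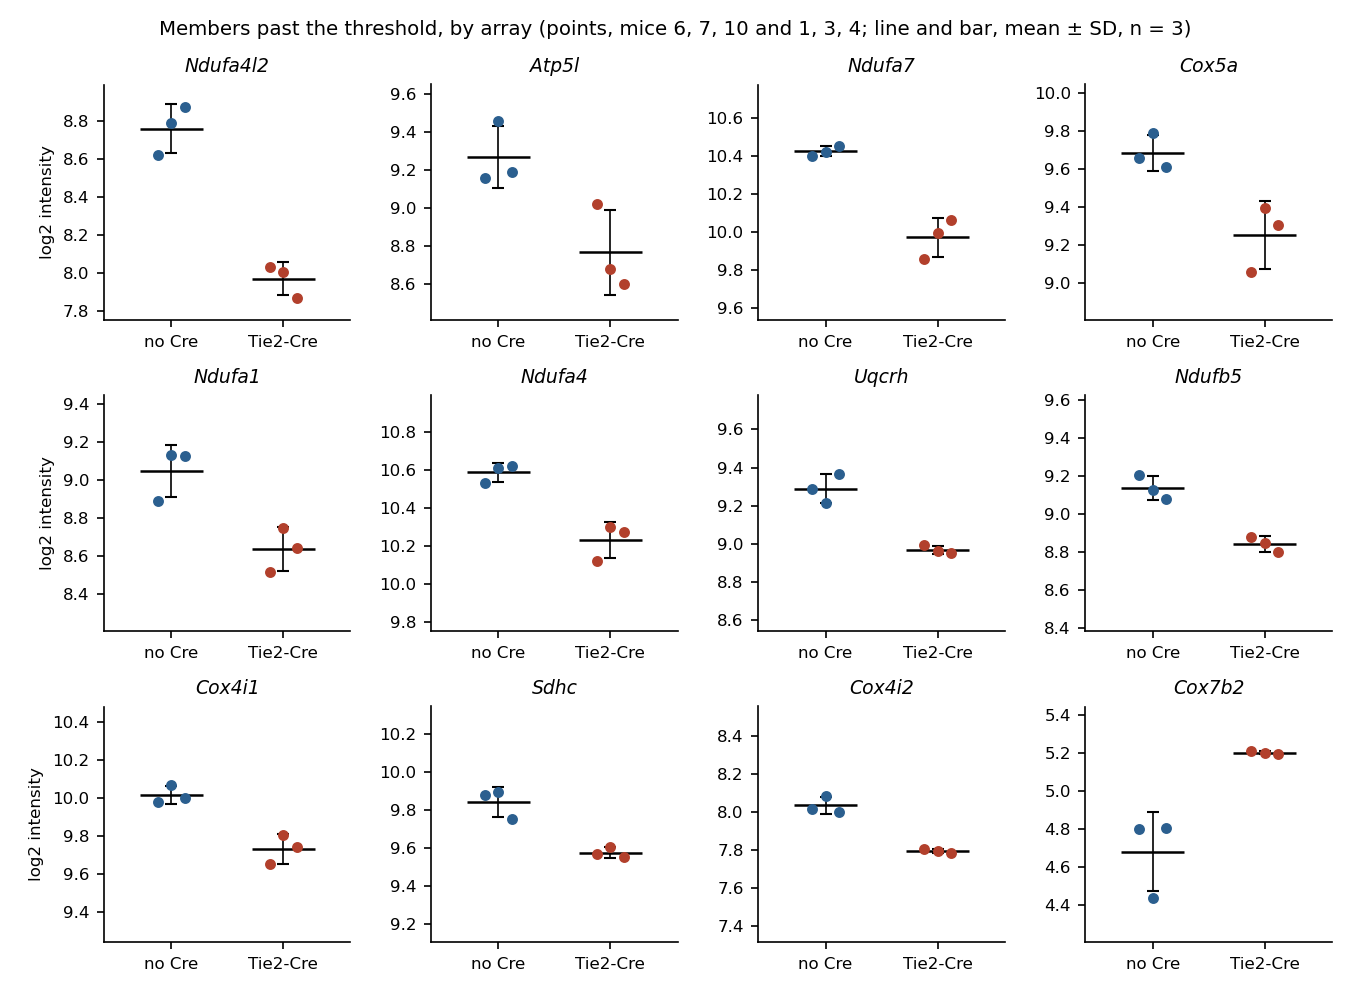
Log2 intensity of the 12 members past the threshold in each array (points; line and bar, mean ± SD, n = 3 mice per group), with axes of equal height. The groups are apart in all 12 genes, which were picked by their calls on these same arrays. Only Cox7b2, at 4.44 to 5.21, is higher with Tie2-Cre.

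Complex II, succinate dehydrogenase, has 4 subunits, all encoded in the nucleus. Sdhc, 1 of its membrane anchors, was the 1 lower gene (25%, against 7.17% of all genes). Its levels were 9.57, 9.61 and 9.55 with Tie2-Cre and 9.88, 9.89 and 9.75 without Cre, a change of -0.27 (SE 0.069, limma adjusted p 0.0451), a call lost when any mouse was left out (adjusted p 0.0554 to 0.143). The flavoprotein gene Sdha lay at 10.55, 10.48 and 10.46 against 10.58, 10.64 and 10.58, with a change of -0.10 (SE 0.065, limma adjusted p 0.390). The iron-sulfur subunit Sdhb changed by -0.03 (SE 0.064) and the second anchor, Sdhd, by -0.0026 (SE 0.069), so that the fitted changes of the anchor pair were unlike. Their difference was not tested.

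In complex III, 1 of 8 genes (12.5%) was lower, against 7.17% of all genes, and 0 were higher. Uqcrh, the acidic hinge protein that bears on the contact with cytochrome c, lay at 8.99, 8.96 and 8.95 with Tie2-Cre and at 9.29, 9.21 and 9.37 without Cre. It changed by -0.32 (SE 0.069, limma adjusted p 0.0210), and the call was kept without no Cre mouse 7 and lost without any other mouse (adjusted p 0.0510 to 0.0776). The small subunit gene Uqcr11 had the largest fitted change of the complex, -0.48 (SE 0.13), with levels of 8.87, 9.27 and 8.99 against 9.59, 9.66 and 9.30. Its limma adjusted p of 0.0514 lay just beyond the threshold, and it passed in 6 of the refits, among them those that left out Tie2-Cre mouse 3 or mouse 10 of the no Cre group. The Rieske iron-sulfur protein Uqcrfs1 changed by -0.26 (SE 0.11, limma adjusted p 0.178) and passed without Tie2-Cre mouse 1 (adjusted p 0.0374). Cyc1, which carries the heme of cytochrome c1, changed by -0.09 (SE 0.072), and the core protein gene Uqcrc1 by 0.04 (SE 0.082). In all 4 small subunits measured (Uqcr11, Uqcrh, Uqcrq and Uqcrb) the groups were apart with Tie2-Cre lower, as in 17.5% of all genes, and they overlapped in the 4 core and redox genes. This division was also made after the values were seen, and its difference was not tested.

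In complex IV, 3 of 17 genes (17.65%) were lower and 1 (5.88%) was higher, against 7.17% and 4.78% of all genes. The other 13 did not pass. Cox5a, a matrix-side subunit, had the levels 9.05, 9.40 and 9.30 with Tie2-Cre and 9.66, 9.79 and 9.61 without Cre. Its change was -0.43 (SE 0.10, limma adjusted p 0.0304), and it passed again on leaving out Tie2-Cre mouse 3, but not any other mouse (adjusted p 0.0585 to 0.105). Cox6b1, Cox7a2 and the supercomplex factor Cox7a2l, named after their values were seen, had changes of -0.42, -0.28 and -0.23 with adjusted p of 0.0580, 0.0509 and 0.0768, and their groups were apart. Cox5b and Cox7c, also named afterwards, had changes of -0.03 and -0.0054 with overlapping groups.

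Complex IV has isoforms that most tissues share and others kept to few tissues. Subunit 4, which is known to bind ATP, exists as the common Cox4i1 and as Cox4i2, found mainly in lung and known to rise in low oxygen. Cox4i1 lay at 9.65, 9.80 and 9.74 with Tie2-Cre and at 9.98, 10.07 and 10.00 without Cre, and Cox4i2 at 7.80, 7.79 and 7.78 against 8.02, 8.09 and 8.0. Both fell, by 0.29 (SE 0.071, limma adjusted p 0.0372) and by 0.24 (SE 0.064, limma adjusted p 0.0462) on the log2 scale, so that the 2 isoforms of this subunit moved the same way. Each call was lost when any mouse was left out (adjusted p 0.0517 to 0.124 for Cox4i1 and 0.0951 to 0.149 for Cox4i2).

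The higher member was Cox7b2, whose human counterpart is known from testis. It lay at 5.21, 5.20 and 5.19 with Tie2-Cre and at 4.80, 4.44 and 4.81 without Cre, far under the median of all genes on every array. Its change was 0.52 (SE 0.11, limma adjusted p 0.0166), lost without Tie2-Cre mouse 1 or 3 (adjusted p 0.0526 and 0.0545), and no detection call says whether this signal was above background. The muscle isoforms Cox6a2, Cox7a1 and Cox8b had changes of -0.14 (SE 0.15), -0.41 (SE 0.17) and 0.06 (SE 0.11), and the testis isoforms Cox6b2 and Cox8c of 0.03 (SE 0.095) and -0.04 (SE 0.078), with overlapping groups in all 5. Without Tie2-Cre mouse 4, which lay at 7.64 against 7.10 and 7.05 in the other Tie2-Cre mice, Cox6a2 passed with a change of -0.33 (adjusted p 0.0492). None of 11 striated muscle markers passed the threshold by limma, and their mean level per array was 6.92 to 7.17 with Tie2-Cre and 6.92 to 6.94 without.

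**Figure D4:**
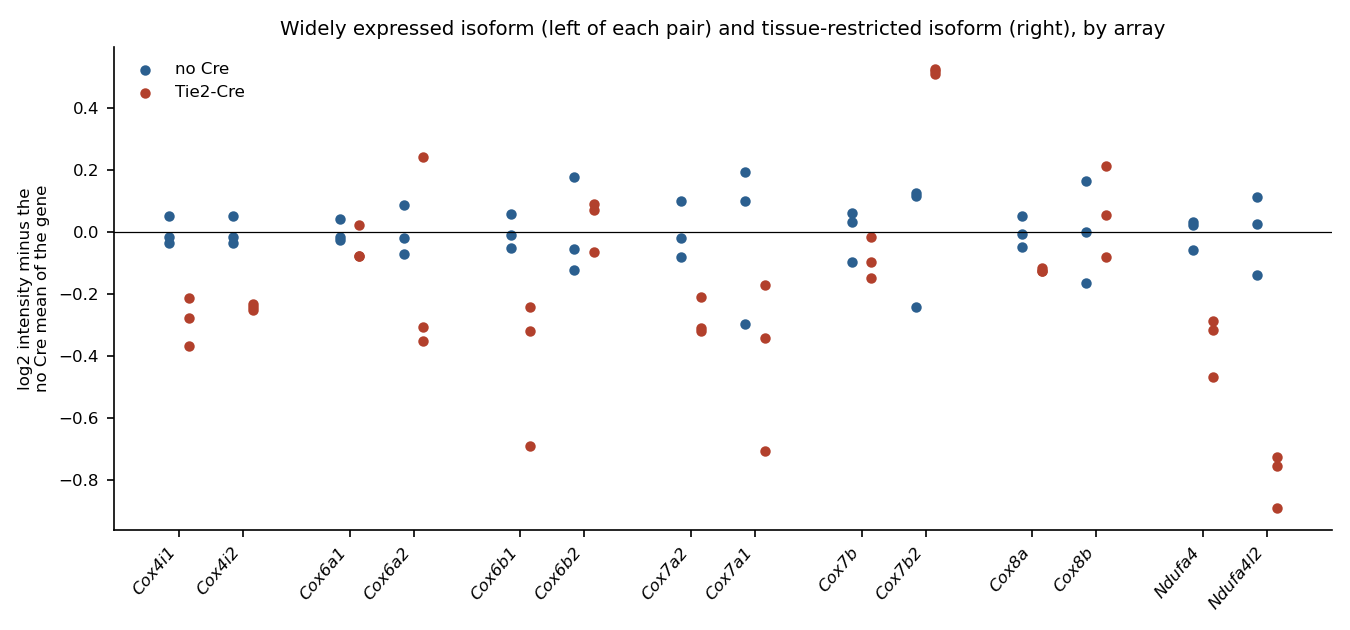
Log2 intensity of each array minus the gene's mean in the no Cre arrays (y axis, log2 units), for 7 pairs of a common isoform and a relative kept to few tissues or to low oxygen. The Tie2-Cre arrays (red) lie under the no Cre arrays (blue) in both genes of the pairs Cox4i1 with Cox4i2 and Ndufa4 with Ndufa4l2, and above them in Cox7b2.

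In the ATP synthase, 1 of 17 genes (5.88%) was lower, against 7.17% of all genes, 0 were higher and 16 did not pass. Atp5l, a small membrane subunit that helps to join the enzyme into dimers, lay at 9.02, 8.68 and 8.60 with Tie2-Cre and at 9.16, 9.45 and 9.19 without Cre. It changed by -0.50 (SE 0.13, limma adjusted p 0.0417). It passed again on leaving out Tie2-Cre mouse 1, but not any other mouse (adjusted p 0.0661 to 0.127), and Tie2-Cre mouse 1 was the nearest to the no Cre mice. Next by p were the stalk subunit Atp5j, with a change of -0.26 (SE 0.072, limma adjusted p 0.0597), and the c ring gene Atp5g3, with -0.21 (SE 0.065, limma adjusted p 0.0755). The groups were apart in both. The largest fitted rise was that of Atp5o, a stalk subunit, with 0.17 (SE 0.14, limma adjusted p 0.530) and overlapping groups.

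None of the genes of the F1 part, which includes the catalytic head, passed the threshold. The beta subunit gene Atp5b, named after its values were seen, lay at 13.06 in all 3 Tie2-Cre mice and at 13.08, 13.06 and 13.02 without Cre, a change of 0.0042 with a 95% confidence interval from -0.14 to 0.15. Over the 5 F1 genes (Atp5a1, Atp5b, Atp5c1, Atp5d and Atp5e) the median was -0.07, and the groups overlapped in all 5, down to Atp5e at -0.26 (SE 0.10, limma adjusted p 0.171). Over the 5 small membrane subunits (Atp5l, Atp5k, Atp5j2, Atp5md and Atp5mpl) the median was -0.19. The groups were apart with Tie2-Cre lower in 3 of these 5, as in 17.5% of all genes. This split was drawn after the values were seen, and the difference was not tested.

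Promoters are shown for members that fell and 1 that did not, because nuclear respiratory genes are known to be driven by NRF1 and by the ETS factor GABP. RefSeq promoter windows of build GRCm38.p6, from 250 bases before to 50 after the start of the gene, were found for 65 of the 82 members. They were searched on both strands for GCGCATG (the core of the NRF1 site), CCGGAAG (an ETS site) and ACGTG (the core of the HIF site, which also lies within the E-box CACGTG). The 4 windows below are printed 5′ to 3′ on the strand of the gene, with every match in capitals. They lie at chr9:44920693-44920992 (minus strand, Atp5l), chr4:116075021-116075320 (minus strand, Uqcrh), chr9:57520982-57521281 (plus strand, Cox5a) and chr5:115348909-115349208 (minus strand, Cox6a1). Cox6a1, chosen after its values were seen, had a change of -0.05 (SE 0.067).
Atp5l: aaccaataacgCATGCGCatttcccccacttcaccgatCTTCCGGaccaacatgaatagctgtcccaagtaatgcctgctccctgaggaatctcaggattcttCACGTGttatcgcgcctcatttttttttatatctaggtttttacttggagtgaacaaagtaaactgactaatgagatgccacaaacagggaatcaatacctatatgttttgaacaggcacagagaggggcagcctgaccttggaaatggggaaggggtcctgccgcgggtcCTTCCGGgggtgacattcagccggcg
Uqcrh: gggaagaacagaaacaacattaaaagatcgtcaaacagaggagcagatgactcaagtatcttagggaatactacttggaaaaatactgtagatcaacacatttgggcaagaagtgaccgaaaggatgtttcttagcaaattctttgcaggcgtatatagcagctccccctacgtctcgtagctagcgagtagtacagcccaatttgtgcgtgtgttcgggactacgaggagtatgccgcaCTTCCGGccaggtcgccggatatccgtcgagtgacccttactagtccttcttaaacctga
Cox5a: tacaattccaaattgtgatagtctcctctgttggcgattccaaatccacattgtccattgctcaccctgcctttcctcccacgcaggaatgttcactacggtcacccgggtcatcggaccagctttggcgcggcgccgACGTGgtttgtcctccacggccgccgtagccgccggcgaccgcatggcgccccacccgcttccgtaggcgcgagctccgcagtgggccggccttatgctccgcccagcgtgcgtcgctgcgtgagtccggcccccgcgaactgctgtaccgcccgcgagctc
Cox6a1: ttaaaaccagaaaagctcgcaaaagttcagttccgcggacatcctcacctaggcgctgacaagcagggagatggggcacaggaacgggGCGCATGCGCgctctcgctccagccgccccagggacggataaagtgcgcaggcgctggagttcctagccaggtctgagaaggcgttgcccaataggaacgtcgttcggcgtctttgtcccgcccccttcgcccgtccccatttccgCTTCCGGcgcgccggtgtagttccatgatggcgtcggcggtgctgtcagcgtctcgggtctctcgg

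Atp5l held all 3 kinds of match, Uqcrh an ETS match at position -10 from the start, Cox5a an ACGTG at position -112, and Cox6a1 an overlapping NRF1 core on each strand and an ETS match. The NRF1 core was present in 14 of the 65 members (21.5%) and in 4.41% of 27025 genes with a window. The ETS letters were present in 17 members (26.2%) and in 9.93% of all genes, and ACGTG in 18 members (27.7%) and in 21.8%. Among the 7 lower members with a window, 1 held the NRF1 core (Atp5l), 2 the ETS letters (Atp5l and Uqcrh) and 4 ACGTG (Atp5l, Cox5a, Ndufa1 and Ndufa7). A match says only that the letters are there.

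Genes that build and feed the chain were read in the same fit, from lists of whole pathways. Over the lists together, 21 of the measured genes that were not members (16.3%) were lower and 0 higher, against 7.17% and 4.78% of all genes, with a median change of -0.06. They include Bnip3, whose list was written with its direction known. Of these lower genes, only Bnip3, Higd1a, Pdk1, Pdk3 and Tmem126b kept the call when any mouse was left out. All the others were lost without no Cre mouse 7, a fit in which 4.1% of all genes were called lower. Of 17 assembly factors of complex I, 2 were lower: Tmem126b (-0.40, SE 0.071, limma adjusted p 0.00975) and Nubpl (-0.40, SE 0.088), which delivers iron-sulfur clusters. Of 10 factors for complexes II and III, 3 were lower: Sdhaf2, which attaches flavin to Sdha (-0.35, SE 0.072), Sdhaf3 (-0.44, SE 0.099) and Ttc19 (-0.29, SE 0.065). Of 23 factors for complex IV, 3 were lower: Higd1a, a hypoxia-induced protein (-0.59, SE 0.081, limma adjusted p 0.00288), the insertase Cox18 (-0.26, SE 0.062) and Cmc1 (-0.27, SE 0.067). Tmem70, needed to assemble the ATP synthase, was the 1 lower gene of 5 (-0.37, SE 0.086). The median changes of these 4 lists were -0.09, -0.21, -0.02 and -0.12. Apart from Tmem126b and Higd1a, all of these calls were lost without at least 4 of the mice in turn (highest adjusted p 0.125).

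Of 11 genes of pyruvate entry and its control, 2 were lower and 0 higher, against 7.17% and 4.78% of all genes, with a median of -0.06. They were Pdk1 and Pdk3, kinases that switch off pyruvate dehydrogenase. Pdk3 lay at 9.64, 9.67 and 9.71 with Tie2-Cre and at 10.57, 10.58 and 10.48 without Cre, a change of -0.87 (SE 0.067, limma adjusted p 0.000204). Pdk1, a HIF-1 target, lay at 8.05, 8.03 and 7.80 against 8.83, 8.94 and 8.71, also a change of -0.87 (SE 0.096, limma adjusted p 0.00108). Both calls were kept when any mouse was left out. Pdk4 had a change of -0.48 (SE 0.15, limma adjusted p 0.0781), and the pyruvate carrier Mpc1 of 0.24 (SE 0.067, limma adjusted p 0.0559).

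Of 12 genes of the tricarboxylic acid cycle, 2 were lower, against 7.17% of all genes. These were Idh3g (-0.28, SE 0.071, limma adjusted p 0.0428) and Suclg1 (-0.32, SE 0.086, limma adjusted p 0.0474), both lost when any mouse was left out (adjusted p 0.0544 to 0.144). Of 8 other donors of electrons to coenzyme Q, 3 were lower, against the same share of all genes. They were Etfa (-0.45, SE 0.089, limma adjusted p 0.0143) and Etfb (-0.47, SE 0.099, limma adjusted p 0.0192), which form the electron transfer flavoprotein of fatty acid oxidation, and the sulfide oxidase Sqor (-0.28, SE 0.069, limma adjusted p 0.0348). Etfa was lost without no Cre mouse 7 (adjusted p 0.0553), Etfb without no Cre mouse 6 or 7 (0.0555 and 0.0730), and Sqor without any mouse (up to 0.122). Of 12 genes of coenzyme Q synthesis and of 8 carriers and porins, 0 passed the threshold in either direction by limma, with medians of -0.05 and -0.10. The smallest p among them belonged to Coq10b (-0.23, adjusted p 0.120).

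Regulators of mitochondrial gene expression were lower in 4 of 20, with 0 higher, against 7.17% and 4.78% of all genes, and had a median of -0.06. Tfam, which packages and transcribes mitochondrial DNA, lay at 7.21, 7.36 and 7.12 with Tie2-Cre and at 7.58, 7.79 and 7.68 without Cre, a change of -0.45 (SE 0.089, limma adjusted p 0.0141). The mitochondrial transcription factor Tfb2m changed by -0.34 (SE 0.075), its relative Tfb1m, a ribosomal RNA methyltransferase, by -0.35 (SE 0.086), and Gabpa by -0.34 (SE 0.078). In all 4 the groups were apart with Tie2-Cre lower, as in 17.5% of all genes, but these 4 were picked by their calls on the same arrays. Tfam was lost without no Cre mouse 7 (adjusted p 0.0549), and the calls of Tfb2m, Tfb1m and Gabpa were each lost without 5 of the 6 mice (adjusted p 0.0589 to 0.117). Nrf1 and the coactivator gene Ppargc1a, named after their values were seen, had changes of -0.04 (SE 0.080) and 0.19 (SE 0.12) and did not pass.

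**Figure D5:**
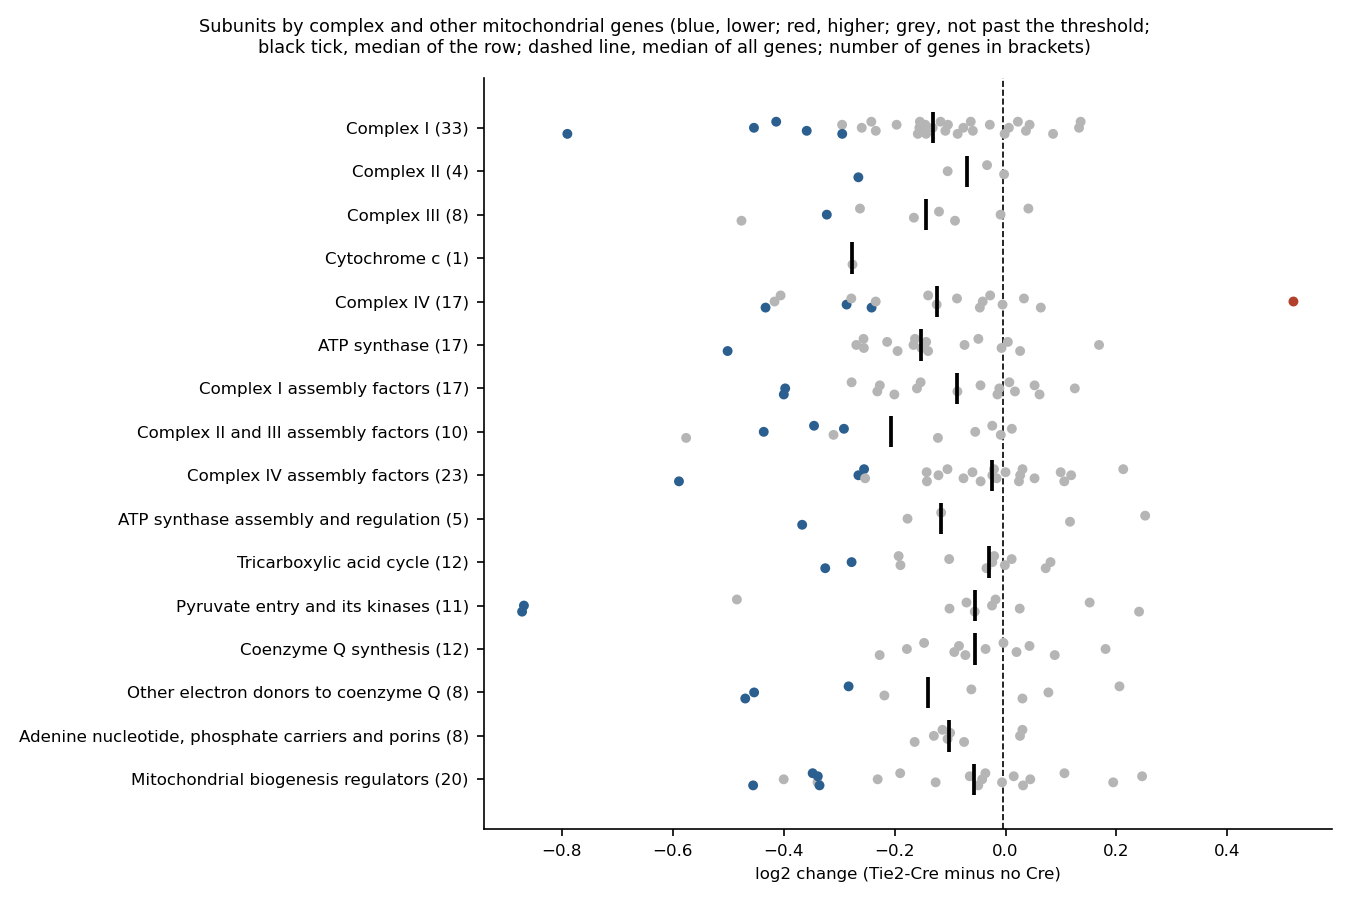
Log2 change, Tie2-Cre minus no Cre (x axis), of each subunit gene by complex and of the other mitochondrial gene lists, 1 point per gene. The low-oxygen list is not plotted. Ndufa4l2 among the subunits lies at -0.79, Pdk1 and Pdk3 among the pyruvate genes at -0.87, and Cox7b2 is the 1 gene called higher.

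Genes tied to the low-oxygen remodelling of the chain were lower in 7 of 9 measured, with 0 higher, against 7.17% and 4.78% of all genes, and 4 of the 9 are members. Among the 7, the calls of Cox4i1, Cox4i2 and Ndufa4 were lost on leaving out single mice, as given above. The list was written knowing that hypoxia genes were lower in these mice, so that these falls are not independent evidence. The list also holds Cox4i1 and Ndufa4, the common counterparts of Cox4i2 and Ndufa4l2, so that the 9 genes share no single expected direction. Beside Ndufa4l2, Cox4i2, Cox4i1, Ndufa4, Pdk1 and Higd1a, the seventh was Bnip3, a mitophagy receptor, with levels of 9.79, 9.79 and 9.41 against 10.80, 10.92 and 10.66 and a change of -1.13 (SE 0.12, limma adjusted p 0.000955). The protease gene Lonp1 (-0.25, SE 0.086, adjusted p 0.105) and Iscu, the scaffold for iron-sulfur clusters (0.03, SE 0.062), did not pass.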

How the data were processed

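RNA of the 6 mice was hybridized to 1 array each. The authors deposited RMA intensities on a linear scale, made in Affymetrix Expression Console per the submitters' processing notes, with values from 5.13 to 17822. RMA corrects background, quantile normalizes and sums up probes. The median log2 over all probe sets ran from 6.64 to 6.69 over the 6 arrays. The version of the software and a genome build are not given in the sources used here. Log2 was taken of the deposited intensity, with no further scaling.

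There were 41345 probe sets: 23521 with 1 gene symbol, 1814 with several and 16010 without an entry. Of several probe sets of a gene the brightest on average was used, which left 22180 genes. The 82 members came from 95 probe sets, and all 82 were found in a RefSeq gene table by identifier.

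Groups were compared with limma 3.58.1 (lmFit and eBayes, two-sided) in R 4.3.3. P-values were adjusted over all genes by Benjamini-Hochberg, and no test was made over a list. The labels name separate mice as replicates. The number of arrays limits precision: the median SD was 0.10 log2 with Tie2-Cre and 0.089 without Cre. Members and lists were chosen with earlier results of these data known. Named were all called members, tissue-restricted and X-linked members, Cycs, Cyc1 and the Sdh genes, the leading and extreme genes of each complex, and up to 4 of each other list by smallest p. Members listed only by symbol to define a division, and others said to be so, were named after their values were seen.

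The comparison was repeated with probe sets that lack a single symbol added to the test, with genes under a mean log2 of 5 removed, with the dimmest 33.3% removed, after quantile normalizing once more, after centring arrays on their medians, with averaged probe sets, with eBayes set to trend and robust, with array weights, and by unadjusted p under 0.05 plus a 1.5-fold change. It was also repeated without each mouse, and counts were taken without X-linked or tissue-restricted members.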

Additional observations from a re-analysis of the deposited data

How the results depend on the processing

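No paired analysis was possible because the groups share no mouse numbers. Of the 11 lower members, 11 were also called with a minimum mean log2 of 5 (17 lower), with the dimmest genes left out (19) and by eBayes with trend and robust (22), the first 2 of which test fewer genes. Adding probe sets without a single symbol, which tests more, left 2 lower (Ndufa4l2 and Ndufa7), and the unadjusted p with 1.5-fold left 1. The count of higher members fell from 1 to 0 with the added probe sets, both filters on dim genes, the 1.5-fold rule, and tissue-restricted members left out. Leaving out 1 mouse gave 3 to 8 lower and 0 to 1 higher members, and over all genes 634 to 903 higher and 910 to 1253 lower. The 1.5-fold rule gave 424 higher and 551 lower genes. After repeated quantile normalization the median of all members was -0.11, of complex III -0.11 and of complex IV -0.073. For complex IV it was -0.19 with the dimmest genes left out and -0.18 without tissue-restricted members. Without 1 mouse the medians were -0.14 to -0.11 for all members, -0.15 to -0.12 for the ATP synthase and -0.15 to -0.079 for complex IV. The cause of these shifts was not tested. Among genes not called, Cox7b changed sign with the mean of its probe sets (0.0035), Sdhd with repeated quantile normalization (0.0083), and 6 genes on leaving out 1 mouse, with ranges of -0.029 to 0.12 for Cox6b2, -0.019 to 0.15 for Cox8b, -0.088 to 0.0023 for Cox8c, -0.13 to 0.25 for Ndufb11, -0.042 to 0.027 for Sdhd and -0.030 to 0.097 for Uqcrc1. Of 1076 pairs of a named gene and an alternative, 853 kept direction and call, 175 lost the call, 36 gained it and 12 changed sign. Signal over background could not be judged.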

Other observations

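Members with several probe sets give a second reading of 10 genes. Of their 13 other probe sets, 10 had a difference of the same sign as the probe set used. For Cycs, the 5 probe sets had differences, Tie2-Cre minus no Cre, of -0.28, -0.16, -0.23, -0.23 and -0.26, and 2 of them hold identical values. In these 2 all Tie2-Cre arrays were the lower ones, at 9.18, 9.33 and 9.41 against 9.59, 9.55 and 9.49. The groups overlapped in the second by brightness and in the dimmest. In the second probe set by brightness, Tie2-Cre mouse 1 lay at 10.57 and the other arrays at 11.14 to 11.46, so that this array was low in more than 1 probe set of the gene. For Ndufa11, in which the same array stood apart, the dimmer probe set showed 7.67 in Tie2-Cre mouse 1 and 7.77 and 7.58 in mice 3 and 4, and its difference was 0.26. A dimmer probe set of Ndufa12 lay at 7.18, 7.25 and 7.31 with Tie2-Cre and at 7.77, 7.91 and 7.80 without Cre, a difference of -0.58, while the brighter one used above showed -0.10 with overlapping groups.

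Tie2-Cre mouse 1 was the lowest of the 6 arrays in 28 members (34.1%), against 20.1% of all genes, and Tie2-Cre mouse 4 in 29 members (35.4%), against 16.9%. Tie2-Cre mouse 3 was the lowest in 11 members (13.41%), a smaller share than its 15.97% of all genes. No Cre mouse 7 was the highest in 32 of the 82 members, and in 22.1% of all genes.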
